A study of Mus musculus with 6 samples.

Results

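The peaks described here are the 1228 peaks that the authors placed in 5′ untranslated regions (5′ UTRs), out of 55449 peaks in the whole table (2.21%). They were chosen by their annotated region alone, and no measured value entered the choice. They carry 844 gene names. The table comes from eCLIP, which crosslinks proteins to bound RNA with ultraviolet light, pulls one protein down with an antibody and sequences the RNA fragments that come along. The antibodies were one against ZFP36L2 and a rabbit IgG that served as the negative control.

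All 6 libraries came from MLTC-1, an established mouse line from a Leydig cell tumour, crosslinked at 254 nm and 400 mJ per cm2, with no other treatment or genotype given. The ZFP36L2 antibody gave 2 immunoprecipitation (IP) libraries and 2 inputs, and IgG gave 1 IP library and 1 input. For each peak the authors computed how ZFP36L2 compares with IgG, as a log2 fold change with its p-value and adjusted p. No column holds the value of a library, so the depth behind a peak and the spread between libraries are unknown, and with 1 IgG library the antibody and that library cannot be told apart. A peak is called enriched here at an adjusted p under 0.05 where its log2 value is 1 or more. Depleted peaks meet the same adjusted p and have a log2 value of -1 or less.

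ZFP36L2 is a CCCH zinc finger protein known for binding AU-rich elements, which lie mostly in the 3′ UTR, and for recruiting the CCR4-NOT deadenylase that shortens the poly(A) tail. The 5′ UTR is the stretch between the cap and the start codon. It is where the small ribosomal subunit scans, and short upstream reading frames, structured elements and bound proteins there are known to set how much of an mRNA is translated. Of the 10 Leydig cell markers listed, 7 had a peak somewhere in the table, with Cyp17a1, Hsd3b1 and Insl3 at 0 peaks, and 0 of 4 Sertoli cell markers had one. All 8 muscle markers listed had peaks, 771 in all, although none lay in a 5′ UTR. All 5 macrophage markers and 1 of 4 germ cell markers had peaks too, likewise none of them in a 5′ UTR. Whether a part of the peaks came from RNA of another tissue was not tested.

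Sequences could be read for 168 of these peaks, with 6 of the 39 enriched and 12 of the 71 depleted ones among them. They lay wholly inside a window of 300 bases around a RefSeq start site (250 before it and 50 after, build GRCm38.p6, the same assembly as mm10). Any window on the chromosome was accepted. Some peaks, such as that of Tceal9 at 75 to 143 nucleotides, thus lay outside the window of their gene's nearest start. Peaks more than 50 nucleotides after a start were read only where the window of another start covered them. The lines that follow hold the first bases, at most 30, of the enriched and then the depleted readable peaks with the smallest adjusted p. They hold 1 peak per gene and stand for the readable calls only. They read 5′ to 3′ on the transcribed strand, T stands for U, and capitals mark the longest unbroken run of A and G (the first of equal runs in Srsf3 and Kctd6), a feature picked after the sequences were seen.
Tceal9, enriched, chrX:136245155-136245184, plus strand: gctccctttagccttgcAGAcggtggtgcg
Psmc1, enriched, chr12:100110184-100110207, plus strand: tggcgatttggaggactGAAGGAA
Pcyt1a, enriched, chr16:32430976-32431005, plus strand: cggtgacgcggcgcGGGGAAGGGAtccgag
Anapc13, enriched, chr9:102626305-102626334, plus strand: aagaagggcggggccGGGAGGAAGccgacg
Srsf3, enriched, chr17:29032688-29032717, plus strand: cgcgagaccGAGAAtctgtaggagcagaac
Arpc2, depleted, chr1:74236529-74236558, plus strand: tgggcGGGGAccgggatcgtcaagtaaggc
Kctd6, depleted, chr14:8214473-8214502, plus strand: acgcgcggccgcctcGGGctttgggctccg
Smg6, depleted, chr11:74925835-74925860, plus strand: cgcgcgccgcccgtccgtcgtGGttt
Bub3, depleted, chr7:131560413-131560435, plus strand: cggtagtggccggtgcAGAAAcg
Wipi2, depleted, chr5:142629553-142629582, plus strand: gcgcagcccgtcccggctctGGAGcataaa

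These sequences were rich in G and C and held no AU-rich core. Over the 115 readable peaks of at least 15 nucleotides, the median share of G and C was 72.1%. It was 59.2% in the 5 enriched peaks (range 50 to 78.4), 70.6% in the 12 depleted ones (range 50 to 82.1) and 72.5% in the 98 not called. The pentamer ATTTA, the core of AU-rich elements, occurred on the transcribed strand in 1 of the 115 peaks, which was not called. The median share of A and G was 70.8% in the 5 enriched peaks (range 52.2 to 73), 53% in the depleted ones (range 30.8 to 67.9) and 58.9% in those not called (range 20 to 92.9). A run of at least 6 bases of A and G stood in the first 30 bases of 3 enriched peaks, of 1 depleted peak and of 39 not called, so the ranges of the 3 sets overlap and the number of enriched peaks is small.

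The motif was also searched in the 300-base windows around the start sites of the same genes, which are longer than the peaks and were read on both strands. Most of each window, 250 bases, lies before the start and so outside the RNA made from that start. ATTTA stood in 24.3% of the 37 windows of genes with an enriched 5′ UTR peak, in 23.3% of the 60 windows of genes with a depleted one, in 20.4% of the 950 windows of all genes with a 5′ UTR peak, and in 34.1% of all 32851 windows. The heptamer TATTTAT, each match of which also holds ATTTA, was in 2 of the 37 windows (5.41%), in 0 of the 60, in 2.21% of the 950 and in 5.6% of all windows. In the first 50 transcribed bases, ATTTA stood in 1 window of the enriched genes and in 2 of the depleted ones, against 1.79% of the 950 and 2.33% of all windows. A match or its absence here is a description of letters in this window only.

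Of the 1228 peaks, 39 (3.18%) were enriched, against 2.22% of all peaks in the table, and 71 (5.78%) were depleted, against 5.44%. Enriched peaks lay in 34 genes and depleted peaks in 58, and no gene had both kinds in its 5′ UTR. The median log2 fold change of the 5′ UTR peaks per the authors' deposited table was -1.07 (quartiles -1.89 and -0.08), and that of all peaks was -1.06. The values ran from -4.62 to 6.13, and 23.6% lay above 0, the same share as over all peaks. Coding peaks had a median of -0.72, 3′ UTR peaks -1.08 and intronic peaks -1.31 per the authors' deposited table. The share of enriched peaks in 3′ UTRs, where the known AU-rich sites lie, was 1.46%, and in coding sequence it was 2.35%. In introns it was 2.17%, and in 2 classes it lay above that of 5′ UTRs, at 3.36% of 2645 peaks of the class Other and 4.76% of 63 miRNA peaks. These shares were not tested against each other. As the table's own centre lies at -1.06, a value near -1 is a typical one here.

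Other call rules gave the following shares, with no test of the differences. At an adjusted p under 0.01, 37 peaks (3.01%) were enriched and 49 (3.99%) depleted, against 1.9% and 3.36% of all peaks. Where the fold threshold was raised to 2 on the log2 scale, 38 (3.09%) and 70 (5.7%) were called, against 2.03% and 5.42%. An unadjusted p under 0.05 was reached by 44 peaks above 0 (3.58%) and 141 below 0 (11.5%), against 2.94% and 11.2%. Values of 3 or more were reached by 30 peaks (2.44%), against 1.3% of all peaks, and values of -3 or less by 60 peaks (4.89%), against 4.74%. Centring all values on the table's median, with the adjusted p kept as deposited, gave 39 enriched (3.18%) and 70 depleted, against 2.22% and 5.41%. As the adjusted p was not recomputed and nearly all called values lie far beyond the fold threshold, these counts could hardly change. With 1 peak per gene and region, the depleted share was 6.87% against 11.4% of the table, and the enriched share 4.03% against 3.36%. The 34 enriched and 58 depleted entries equal the genes with any called 5′ UTR peak, so an entry with more peaks had more chances of a call. The 5′ UTR had 1228 peaks in 844 genes, coding sequence 20515 in 6233 and introns 23461 in 5713. These shares do not allow for that difference.

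**Figure D1:**
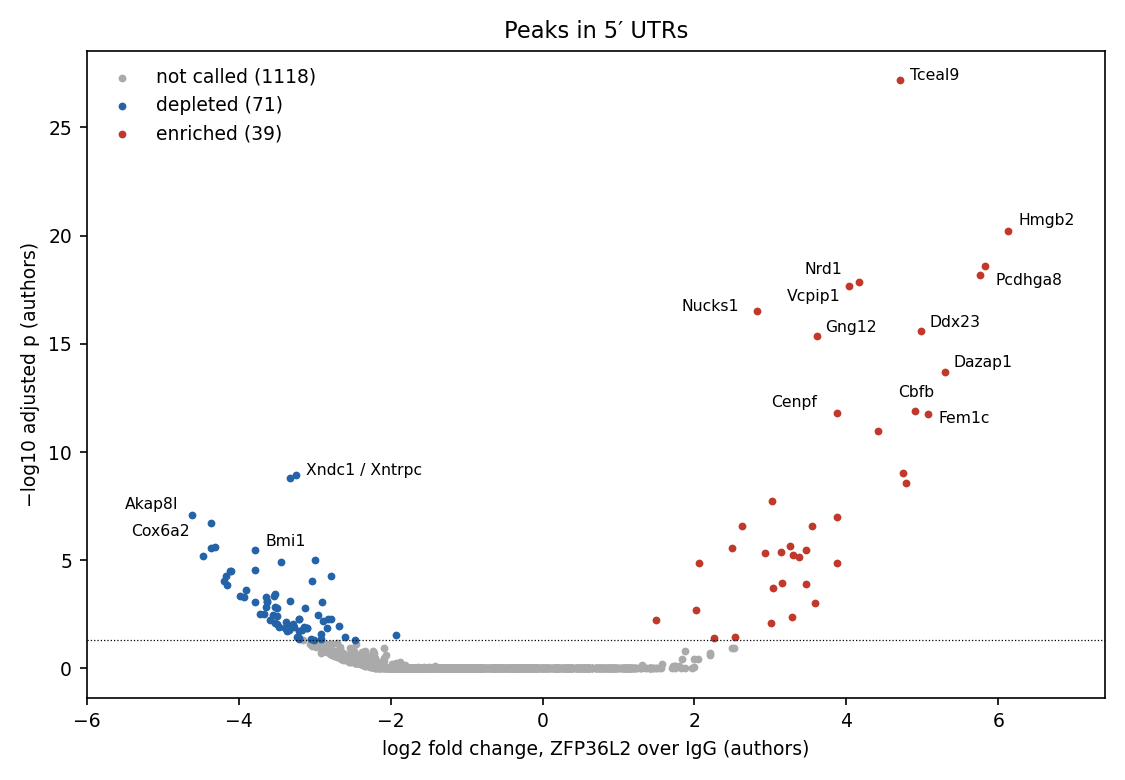
Each point is 1 of the 1228 peaks in 5′ UTRs, with the authors' log2 fold change of ZFP36L2 over IgG on the horizontal axis and −log10 of their adjusted p on the vertical axis; the dotted line marks an adjusted p of 0.05. The 39 enriched peaks reach further from 0 on both axes than the 71 depleted ones, and the 1118 grey peaks were not called.

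The best-supported 5′ UTR peak belonged to Tceal9, a member of the transcription elongation factor A-like family, on the X chromosome. It spanned 69 nucleotides, from 75 to 143 nucleotides after the RefSeq start (counted along the genome, as all distances here), and its log2 fold change per the authors' deposited table was 4.70 (adjusted p = 6.5e-28). It was the only peak of the gene. No other region of the gene could therefore be set beside it.

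The enriched genes are taken here by what they are known to do, an order made after the calls were seen and with no test of any group. Hmgb2, a high mobility group protein that bends DNA, had 2 peaks close together on chromosome 8, at 57511975 to 57511977 and at 57511989 to 57512004, for which the authors' deposited table gives 5.76 and 6.13 (adjusted p = 6.9e-19 and 6.0e-21). The second is the largest value of any 5′ UTR peak. The single coding peak of Hmgb2 stood at 0.89 (adjusted p = 0.0065) per the authors' deposited table, which misses the fold threshold used here. Nucks1, a nuclear phosphoprotein, had 1 peak in the 5′ UTR at 2.82 (adjusted p = 3.1e-17), 1 in the 3′ UTR at 3.15 and 1 in an intron at 1.93 per the authors' deposited table, and all 3 were enriched. Hp1bp3, a heterochromatin protein 1 binding protein, had neighbouring peaks at 3.01 (adjusted p = 0.0079) and at 2.20 (adjusted p = 0.19) per the authors' deposited table, of which the first passed.

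Of the genes whose proteins act on RNA, some had enriched and others depleted 5′ UTR peaks, the latter including Smg6, Cnot7, Hnrnph3, Papolg, Chtop, Rbm24 and Ints11. Ddx23, the DEAD-box helicase of the U5 snRNP, had a peak of 27 nucleotides at 4.98 (adjusted p = 2.6e-16) per the authors' deposited table, and its 1 intronic peak stood at -0.68. Dazap1, an hnRNP-like RNA-binding protein, reached 5.30 (adjusted p = 1.9e-14) per the authors' deposited table from 34 to 91 nucleotides after its start, whereas its 4 coding peaks had a median of -1.56. Ythdc1, the nuclear reader of N6-methyladenosine, had the longest peak of all in a 5′ UTR, 141 nucleotides, at 4.79 (adjusted p = 2.6e-09) per the authors' deposited table, and its 6 coding peaks were enriched as well. Srsf3, a serine and arginine-rich splicing factor, had 1 peak, at 3.58 (adjusted p = 9.5e-04) per the authors' deposited table. Cnot1, on which the CCR4-NOT deadenylase is assembled, had a peak of 104 nucleotides at 2.02 (adjusted p = 0.002) per the authors' deposited table, together with 4 enriched and 1 depleted among 8 intronic peaks and none called among 6 coding ones.

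Vcpip1, a deubiquitinase that works with the p97 ATPase, had a peak of 107 nucleotides at 4.04 (adjusted p = 2.2e-18) per the authors' deposited table. Nrd1, the metalloprotease nardilysin, stood at 4.16 (adjusted p = 1.4e-18) and Fem1c, a substrate receptor of a cullin ubiquitin ligase, at 5.07 (adjusted p = 1.8e-12) per the authors' deposited table, the latter beside 4 intronic peaks with a median of -2.31. Psmc1, an ATPase subunit of the 26S proteasome, was enriched in all of its 5 peaks. Its 5′ UTR peak touched a coding peak, and the pair stood at 3.02 and 3.67 per the authors' deposited table. Canx, the endoplasmic reticulum chaperone calnexin, likewise had enriched peaks in its 5′ UTR (2.06, adjusted p = 1.3e-05, per the authors' deposited table), in 7 of 7 coding and in 4 of 5 intronic positions.

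Genes known for roles in cell division likewise had peaks called in both directions. Bub3, a spindle checkpoint protein, was depleted in 1 of 2 5′ UTR peaks (-3.64, adjusted p = 0.0014, per the authors' deposited table) and in 2 of 2 coding peaks. Cenpf, a kinetochore protein, had a peak at 3.88 (adjusted p = 1.6e-12), and Arhgap11a, a GTPase-activating protein, one at 4.42 (adjusted p = 1.1e-11), per the authors' deposited table. Anapc13, a subunit of the anaphase-promoting complex, had 2 touching peaks within the first 52 nucleotides, at 3.37 and 3.04 per the authors' deposited table, while its 3 coding peaks had a median of 0.19. Tacc1, a centrosomal coiled-coil protein, and Septin9, a cytoskeletal GTPase, both stood at 3.47 per the authors' deposited table.

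Signalling genes included Gng12, a G protein gamma subunit, in which all 3 of the 5′ UTR peaks were enriched. They stood at 3.61, 3.87 and 3.30 per the authors' deposited table, at 50 to 248 nucleotides after the start. In the same gene, 4 of 12 intronic peaks were enriched and 1 of 5 3′ UTR peaks was depleted. Taok3, a kinase of the stress-activated MAP kinase pathways, had 1 enriched peak at 4.75 (adjusted p = 8.9e-10) per the authors' deposited table and another 2 that ranged from -0.14 to 0.21, the latter in a 5′ UTR part 120725 to 120763 nucleotides after the listed start. Gsk3b, glycogen synthase kinase 3 beta, had 3.15 (adjusted p = 1.1e-04) per the authors' deposited table, with 2 of its 9 intronic peaks depleted. Lrp1, an endocytic receptor for lipoproteins, stood at 3.55 per the authors' deposited table.

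Hif1a, the oxygen-regulated transcription factor whose 5′ UTR has been studied for cap-independent translation, had 1 peak there, of 36 nucleotides, from 167 to 202 nucleotides after the start. Its log2 fold change was 3.87 (adjusted p = 1.3e-05) per the authors' deposited table. The 2 coding peaks of Hif1a had a median of -0.91 and the 1 peak in its 3′ UTR stood at -2.11, and none of those passed. Pkm, pyruvate kinase, had 2 touching 5′ UTR peaks at 2.62 and 2.50 per the authors' deposited table, 7657 to 7709 nucleotides after the nearest listed start. Ftl1, ferritin light chain, whose 5′ UTR carries the iron-responsive element, had the smallest enriched value, 1.49 (adjusted p = 0.006) per the authors' deposited table, over 89 nucleotides, and its 1 coding peak was enriched at 1.58.

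In the Leydig cell genes, the prolactin receptor Prlr was the only listed one with an enriched 5′ UTR peak. The peak lay 41 to 96 nucleotides after the start at a log2 value of 2.53 (adjusted p = 0.034) per the authors' deposited table, near the edge of what was called. None of the 19 intronic peaks of Prlr was called, and their median was 0.14. Just inside the threshold with it was Akap11, an anchoring protein of protein kinase A, at 2.26 (adjusted p = 0.038) per the authors' deposited table. Just outside were Nrarp at 2.52 and Ahcyl1 at 2.50, both with adjusted p = 0.11 per the authors' deposited table. The steroid genes Star and Cyp11a1 and the luteinizing hormone receptor gene Lhcgr had peaks elsewhere but 0 in the 5′ UTR. Zfp36l2, Zfp36l1, Zfp36 and Myc had no peak of any kind.

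Further enriched genes were Pcdhga8 (5.83), Cbfb (4.90), Parp4 (3.28), Vim (3.14) and Pcyt1a (2.93), all per the authors' deposited table. Pcdhga8 is a gamma protocadherin, a gene of a cluster with shared constant exons, and its peaks in other regions carry the names of several genes of the cluster. Cbfb is the beta subunit of core-binding factor, Parp4 the poly(ADP-ribose) polymerase of vault particles, Vim the intermediate filament protein vimentin, and Pcyt1a the enzyme that limits phosphatidylcholine synthesis.

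**Figure D2:**
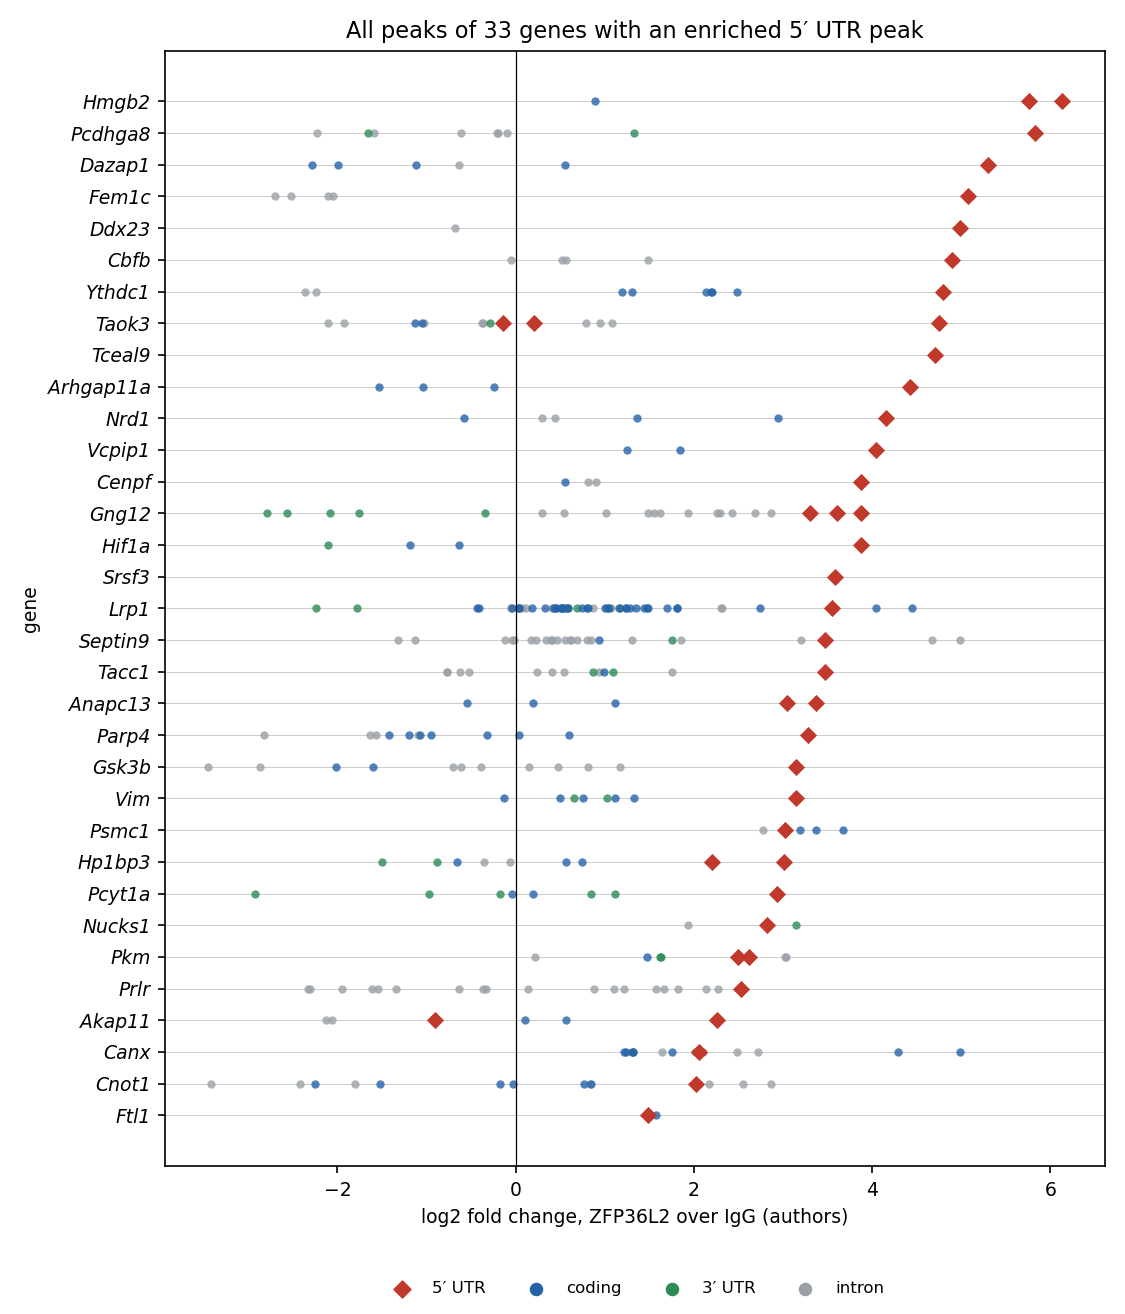
Every peak of 33 of the 34 genes with an enriched 5′ UTR peak is drawn at its log2 fold change (authors' values), with 1 gene per line and genes ordered by their highest 5′ UTR value; diamonds are 5′ UTR peaks and circles are peaks of other regions. In Hmgb2, Dazap1, Fem1c and Hif1a the diamonds stand apart from all other peaks, whereas in Psmc1, Canx and Ftl1 peaks of other regions lie at similar values.

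In most of these genes no peak outside the 5′ UTR was enriched. Of the 34, 32 had peaks in other regions, and in 21 of those no other peak was enriched. The 11 with an enriched peak elsewhere were Nrd1, Nucks1, Gng12, Ythdc1, Psmc1, Lrp1, Pkm, Canx, Septin9, Cnot1 and Ftl1. Over all 279 peaks in other regions of the 34 genes, 41 (14.7%) were enriched and 5 (1.79%) depleted, with a median of 0.52 per the authors' deposited table, against 2.22%, 5.44% and -1.06 over the whole table. By region, 20 of 106 coding peaks, 19 of 139 intronic peaks and 2 of 34 3′ UTR peaks were enriched.

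Depleted 5′ UTR peaks, those lower with ZFP36L2 than with IgG, reached neither the size nor the small adjusted p of the enriched ones. The most negative value was -4.62 (adjusted p = 8.1e-08) in Akap8l, a nuclear relative of the A-kinase anchoring proteins, per the authors' deposited table. That peak touched a coding peak at -1.38 that was not called. Elsewhere in Akap8l, 1 of 4 coding and 2 of 5 intronic peaks were depleted, and 1 intronic peak was enriched. Cox6a2, the heart and skeletal muscle isoform of a cytochrome c oxidase subunit, had 2 touching peaks at -4.47 and -4.37 (adjusted p = 6.6e-06 and 2.0e-07) per the authors' deposited table, while its 1 coding peak stood at 2.06 and was not called. Ptn, the growth factor pleiotrophin, had -4.36, and Sirt6, a nuclear deacylase, had 2 touching peaks at -4.31 and -4.10 with no peak in any other region, per the authors' deposited table. Mtus1, a microtubule-associated tumour suppressor, had -4.19 in one 5′ UTR peak and -2.14 in the other per the authors' deposited table, while its 2 coding peaks had a median of 1.44.

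The next values came from Gpr22, an orphan receptor (-4.16), Camta2, a calmodulin-binding transcription activator (-4.15), Sema4d, a semaphorin (-4.12), and Frmpd4, a synaptic scaffold (-3.98), per the authors' deposited table. Bcap31, an endoplasmic reticulum sorting protein, Kctd6, a cullin adaptor, and Sv2c, a synaptic vesicle protein, stood at -3.93, -3.90 and -3.79 per the authors' deposited table. The smallest adjusted p of the depleted peaks, 1.1e-09 and 1.6e-09, belonged to 2 touching peaks that carry both names Xndc1 and Xntrpc, with -3.25 and -3.33 per the authors' deposited table. Bmi1, a Polycomb protein, Arpc2, an actin-nucleating complex subunit, and Gid4, a substrate receptor of the CTLH ubiquitin ligase, had best adjusted p of 3.5e-06, 1.0e-05 and 1.2e-05 per the authors' deposited table. Coding peaks were depleted too in Camta2 (2 of 14), Sema4d (1 of 2), Xndc1 and Xntrpc (2 of 4) and Bmi1 (1 of 2). The other genes of this paragraph had no depleted coding peak.

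Some genes had called peaks in opposite directions in different regions. Spen, a large transcriptional corepressor, had 2 depleted 5′ UTR peaks (-2.95 and -2.92) and 3 enriched among 9 coding peaks, which reached 5.09 per the authors' deposited table. Tbc1d19, in contrast, was depleted at -3.21 in the 5′ UTR and more so in its 3 coding peaks, with a median of -6.23 per the authors' deposited table. Of the 58 genes with a depleted 5′ UTR peak, 47 had peaks elsewhere, of which 18 had another depleted peak and 3 had an enriched one. Their 283 peaks in other regions, counted under every name, had a median of -1.22 per the authors' deposited table. Of these, 29 (10.2%) were depleted and 7 (2.47%) enriched. Over the whole table the shares were 5.44% and 2.22%, and the median was -1.06. Just inside the threshold lay Snx18 (-3.01), Pafah1b1 (-2.47) and Fxyd5 (-3.20), with adjusted p = 0.048, 0.047 and 0.044, and just outside lay Srgap2 (-3.15), Rap1gap2 (-2.99) and 2310022B05Rik (-2.71), with 0.051, 0.06 and 0.069, per the authors' deposited table.

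**Figure D3:**
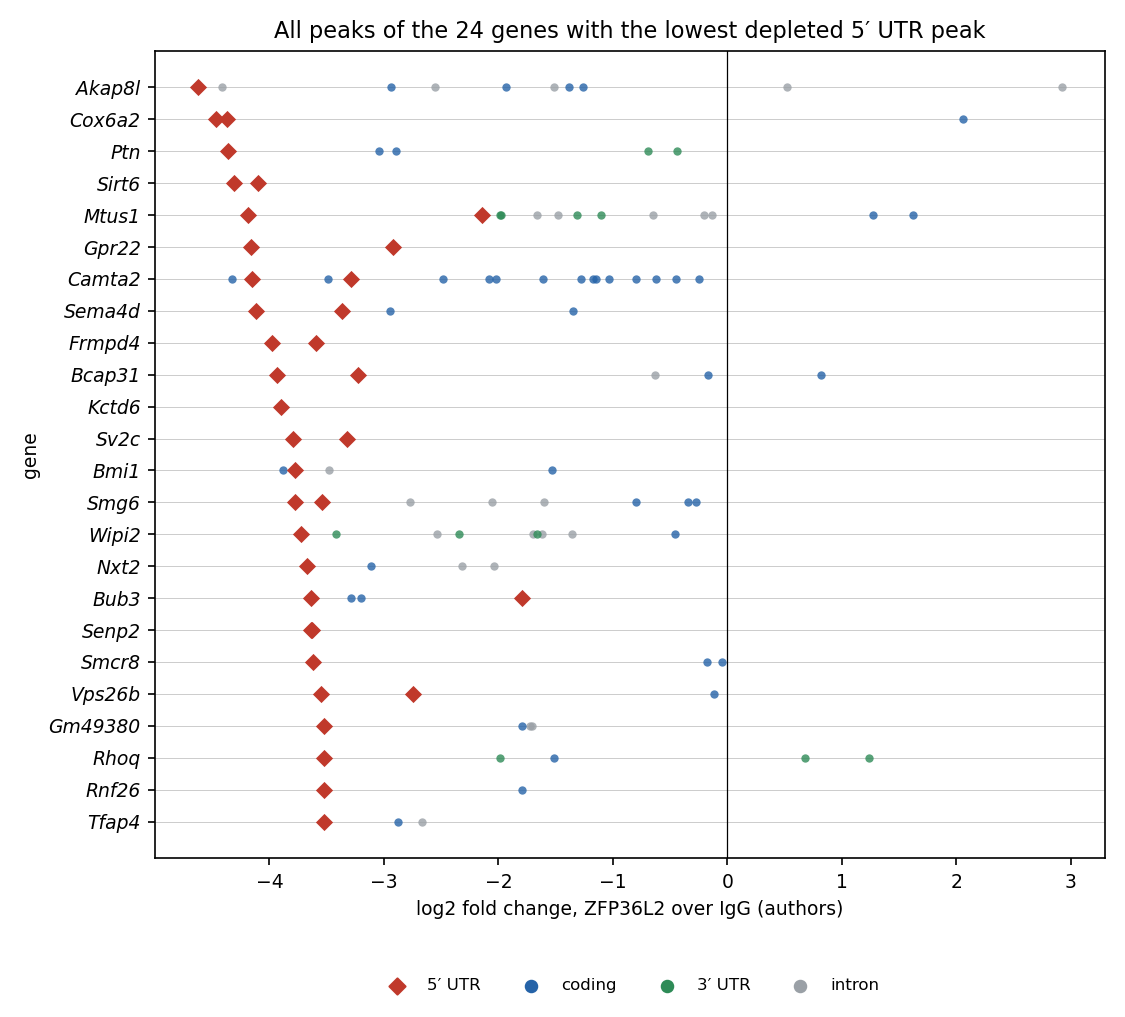
Every peak of the 24 gene names with the lowest depleted 5′ UTR peak is drawn at its log2 fold change (authors' values), 1 name per line; Gm49380 and Rnf26 share 1 depleted peak. The names were picked and ordered by their lowest 5′ UTR value, so that diamonds (5′ UTR) lie left of most circles follows from that choice. The coding peaks of Cox6a2 and Mtus1 lie above 0.

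The 5′ UTR values were also compared with those of other regions in the same gene. Whether this sets the gene's own RNA level aside was not tested, as no RNA abundance is given. In the 564 genes with both 5′ UTR and coding peaks, the difference of the gene's medians, 5′ UTR minus coding, had a median of -0.18 (quartiles -1.19 and 0.75), and the 5′ UTR was the higher in 250 genes (44.3%). Against introns, in 474 genes, the median difference was 0.33 and the 5′ UTR was higher in 281 (59.3%). Against 3′ UTRs, in 307 genes, it was 0.16, and the 5′ UTR was higher in 164 (53.4%). The quartiles of all 3 differences include 0. Across genes, the medians of 5′ UTR and coding peaks had a Spearman correlation of 0.35 (Pearson's r 0.32, 564 genes). For introns the Spearman correlation was 0.36 and for 3′ UTRs 0.16 (Pearson's r 0.36 and 0.17). These points share the same libraries and each gene's RNA level.

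Seen from the other regions, 40 of the 564 genes had an enriched coding peak, and 6 of those (15%) had an enriched 5′ UTR peak, against 25 of all 564. Of the 51 genes with a depleted coding peak, 13 (25.5%) had a depleted 5′ UTR peak, against 43 of all 564, and 0 had an enriched one. Of 34 genes with an enriched intronic peak, 7 (20.6%) had an enriched 5′ UTR peak, against 23 of all 474 genes with both. Of 88 with a depleted intronic peak, 6 (6.82%) had a depleted 5′ UTR peak, against 28 of the 474. Of the 13 genes with an enriched 3′ UTR peak, 2 (15.4%) had an enriched 5′ UTR peak, against 14 of 307. Of the 25 with a depleted 3′ UTR peak, 1 had a depleted 5′ UTR peak, against 15 of 307. Opposite calls occurred too. A depleted 5′ UTR peak stood in 1 of the 40 genes with an enriched coding peak, 2 of the 34 with an enriched intronic one and 0 of the 13. An enriched 5′ UTR peak stood in 3 of the 88 genes with a depleted intronic peak and 1 of the 25 with a depleted 3′ UTR peak. In 47 runs of touching peaks that cross from the 5′ UTR into coding sequence, the median difference between the 2 sides was -0.02 per the authors' deposited table. Psmc1 was the only such run with an enriched 5′ UTR side, and 5 runs had a depleted one, among them Hnrnph3 and Scai, which were depleted on both sides.

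Distance was measured along the genome, introns included, from the nearest RefSeq start of a gene of the same name, which 994 of the peaks (80.9%) had. The middle of the peak lay a median of 171 nucleotides after the start (quartiles 64.6 and 511.5). The share of enriched peaks was highest between 50 and 200 nucleotides. From 50 to 100 nucleotides, 8 of 143 peaks (5.59%) were enriched, and from 100 to 200 nucleotides 11 of 182 (6.04%), whereas in the first 50 nucleotides 2 of 112 (1.79%) were, and from 500 to 2000 nucleotides 1 of 118 (0.847%). Depleted peaks had shares between 5.49% and 8.33% in all bins up to 2000 nucleotides and 3.62% beyond. The enriched peaks had a median distance of 110.5 nucleotides, the depleted ones of 137.5 and the rest of 179.5, and the quartiles of all 3 sets overlapped. These shares were not tested.

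**Figure D4:**
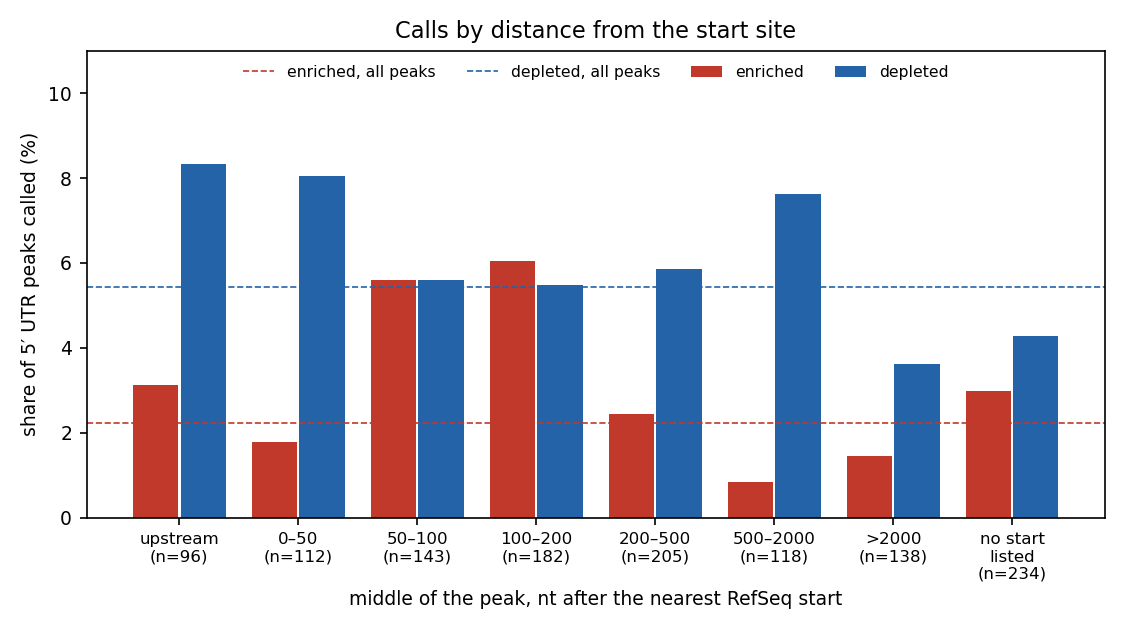
Bars give the share of 5′ UTR peaks that were enriched (red) or depleted (blue), in bins of the genomic distance from the nearest RefSeq start to the middle of the peak in nucleotides, with the number of peaks under each bin; dashed lines give the shares over all 55449 peaks, 2.22% and 5.44%. The enriched share exceeds 5% only in the bins from 50 to 200 nucleotides.

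Called peaks were longer in the median than the rest. The median length was 32 nucleotides over all 5′ UTR peaks, 56 in the enriched ones (quartiles 30 and 78.5), 38 in the depleted ones and 31 in those not called. Of the 27 peaks of at least 80 nucleotides, 9 (33.3%) were enriched, among them those of Ythdc1, Fem1c, Nucks1, Vcpip1, Cnot1, Ftl1, Gng12 and Akap11, and 1 was depleted (Rhoq). Over the whole table, 10.7% of the peaks of this length were enriched. In the shorter classes, between 1.56% and 3.7% of 5′ UTR peaks were enriched. Depletion was most frequent from 20 to 39 nucleotides, at 9.41% of 340 peaks against 8.60% of all peaks of that length. The part of length in the calls was not tested.

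**Figure D5:**
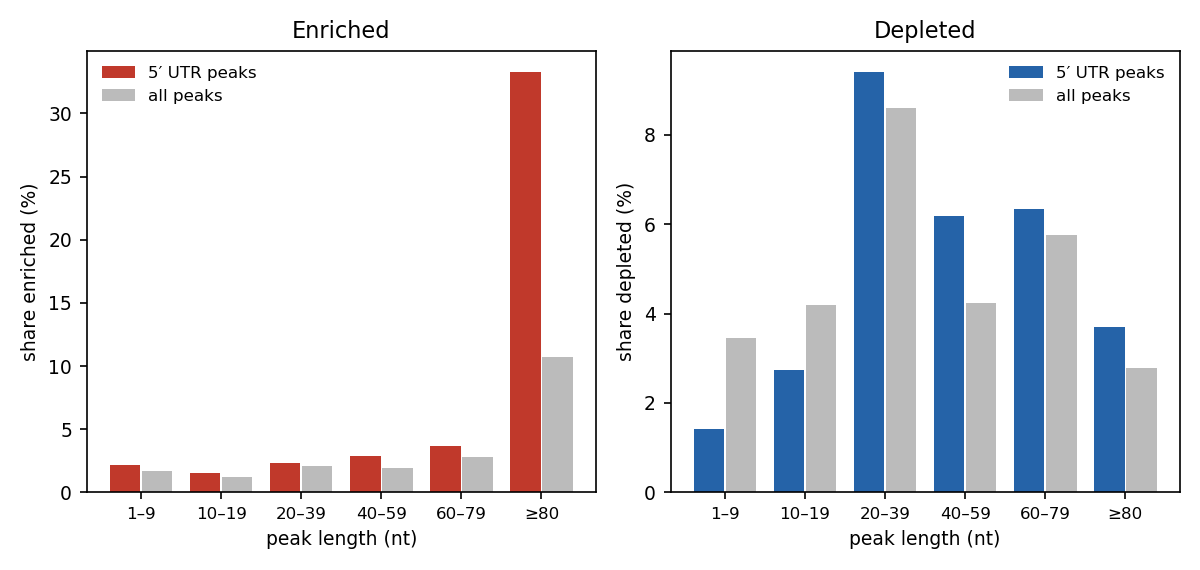
Bars give the share of peaks called enriched (left) and depleted (right) by peak length in nucleotides, in colour for 5′ UTR peaks and in grey for all peaks of the table. The enriched share is highest at 80 nucleotides and over, 33.3% in 5′ UTRs and 10.7% over all peaks.

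Gene lists from textbook knowledge were laid over the 5′ UTR peaks, and few members had one. Of the mRNAs with a 5′ terminal oligopyrimidine tract, the cap-proximal element of ribosomal protein and elongation factor mRNAs, 64 had a peak in the table and 6 had one in the 5′ UTR. Their 7 peaks ranged from 0.61 to 3.14 with a median of 0.96 per the authors' deposited table, beside -1.07 for all 5′ UTR peaks, and 1 passed, that of Vim. Eef1b2, an elongation factor subunit, had 1.72 (adjusted p = 0.78) and Rps14, a protein of the small ribosomal subunit, 0.70 (adjusted p = 1) per the authors' deposited table. Among translation factors, 7 genes had 10 peaks with a median of -0.04 and none was called. Among mRNAs with a known 5′ iron-responsive element, the 2 with peaks were Ftl1, enriched, and Epas1, at 1.15 and not called per the authors' deposited table. Odc1 (0.20) and Mdm2 (-1.06), known for upstream reading frames, were not called per the authors' deposited table.

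Among mRNAs known for AU-rich elements, 5 genes had 6 peaks in the 5′ UTR, of which that of Hif1a was enriched. The others, of Cited2, Jun, Junb and Klf4, lay between -0.91 and 1.15 per the authors' deposited table. The list of mRNAs studied for internal initiation held 3 peaks, those of Hif1a and Jun among them, with Hif1a again the one that was called. Of the mRNA decay factors, 5 genes had 8 peaks with a median of -2.23, of which 1 was enriched (Cnot1) and 3 were depleted per the authors' deposited table. Of all 5′ UTR peaks, 3.18% were enriched and 5.78% depleted. Over all regions, this list had 301 peaks, of which 8 were enriched and 15 depleted. The depleted 5′ UTR peaks were both touching peaks of Smg6, an endonuclease of nonsense-mediated decay (-3.54 and -3.78), and 1 of 2 peaks of Cnot7, a deadenylase of the CCR4-NOT complex (-2.83), per the authors' deposited table. So few peaks were not tested as a group. Of 7 peaks on the list of splicing factors and hnRNP proteins, that of Srsf3 was enriched and that of Hnrnph3 depleted. Ddx23 and Dazap1, whose 5′ UTR peaks were enriched, are not on that list. Among chaperone and stress genes, Canx and Hif1a were the enriched ones of 9 peaks.

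Of the genes of cAMP signalling and protein kinase A, 3 had 4 peaks, and Akap11 was the one called. Prkar2a, a regulatory subunit, had 2.0 (adjusted p = 0.83) and Prkacb, a catalytic subunit, 0.92 per the authors' deposited table. Besides Prlr, the Leydig cell list held Nr2f2, with 3 peaks from -2.65 to -0.44, and Fdxr, the reductase that feeds electrons to steroid-making P450 enzymes, with -1.41 and -0.87, none of them called per the authors' deposited table. Cholesterol genes had 5 peaks, in Fdps, Dhcr7 and Lipe, between -1.07 and 0.58, and none was called. Zinc finger genes had 25 peaks in 18 genes with a median of -1.13 and a highest value of 0.61, and chromatin genes 25 peaks in 16 genes with a median of -1.02 and a range from -2.77 to 1.57, and none on either list was called per the authors' deposited table. The chromatin list does not hold Hmgb2, Hp1bp3 and Nucks1, which had enriched 5′ UTR peaks, or Bmi1 and Sirt6, which had depleted ones. The cell cycle list held 1 peak, in Mdm2, and does not hold Cenpf, Anapc13 or Bub3, described above. The muscle list had 5 peaks in 4 genes, with Cox6a2 depleted and Xirp2 (1.74), Trdn (-1.23) and Nrap (-1.01) not called per the authors' deposited table. The macrophage list had 2 peaks and the list of Sertoli and germ cells 2, in Ctsl and Zbtb16, none of them called.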

How the data were processed

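Build mm10 and the tools STAR 2.7.7a, UMI-tools 1.1.1, DESeq2 1.34.0 and cutadapt 3.2 are named, without role or order, per the submitters' processing notes. Not given in the sources used here is how peaks were called, whether replicates were pooled and whether inputs entered the fold change. Deposited by the authors were a log2 fold change, whose direction follows the table's name, and −log10 values of the p-value and adjusted p-value, converted back here. The adjusted values differed by at most 0.0099 on that scale from a Benjamini-Hochberg adjustment over all 55449 peaks. The planned fit to counts could not be made, since 0 columns hold a library's values, so the authors' calls stand and no test was added. Nothing in the labels says that libraries came from separate cultures. Shares of 5′ UTR peaks are set beside those of all peaks. Counts, merging of touching peaks, distances and sequences were computed with Python 3.11.15 and pandas 2.3.3 and checked on simulated data.

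The 10 peaks that carry more than 1 gene name were counted under every name. Of the 844 names, 840 were RefSeq symbols of GRCm38.p6 and 674 had a start sequence. The sequences are RefSeq's. Of the matched peaks with 1 name, 98.8% overlapped the RefSeq gene. The members and the 18 lists were chosen with earlier results of these data known. The rule for named genes takes all enriched genes, the 12 lowest and the 8 best-supported depleted genes, the 6 genes with the most 5′ UTR peaks, 4 members per list and a set that includes Hif1a and Prlr. Others were named after their values were seen, and a few genes that the rule takes are not reported here.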

Additional observations from a re-analysis of the deposited data

How the results depend on the processing

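The 39 enriched peaks became 37 at an adjusted p under 0.01, and at a log2 fold change of at least 2 they became 38. Depleted peaks numbered 49 and 70 under these settings. With all values centred on the median of the table, the calls were 39 and 70, and the median of the 5′ UTR peaks moved from -1.07 to -0.01. The adjusted p was kept as deposited there, so this setting could hardly change the calls and does not test them against that centre. Merging touching peaks, leaving out peaks with several names, peaks under 20 nucleotides or muscle genes kept both counts within 1.5 times. With 1 peak per gene and region, 6.87% of 5′ UTR entries were depleted against 11.4% of all, and 4.03% enriched against 3.36%. These shares do not allow for the larger number of peaks per gene in coding sequence and introns. Another setting, added once the data had been seen, kept the 643 peaks within 500 nucleotides after a RefSeq start, and gave 26 enriched (4.04%) and 39 depleted (6.07%); fewer peaks entered it. The median difference between 5′ UTR and coding peaks of a gene lay between -0.18 and -0.27 in the settings tried. No paired analysis was possible because the table holds no values per library; for the same reason no library could be left out, and depth cannot be judged.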

Other observations

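Neighbouring peaks of one 5′ UTR did not always share a value. The 300 pairs of touching peaks differed by a median of 0.30 on the log2 scale and 84.7% of them by less than 1, and the 91 pairs of separate neighbours in a gene differed by a median of 0.59, with 68.1% under 1. Of the 325 genes with several 5′ UTR peaks, 37 had values on both sides of 0. Fbn1, which encodes the microfibril protein fibrillin-1, had 4 peaks that ranged from -2.74 to 1.41 per the authors' deposited table, and none was called. Taok3 spanned 4.89 between its lowest and highest 5′ UTR peak and Akap11 3.16. Dlx2, a homeobox transcription factor with the most 5′ UTR peaks, had 7, all touching in a chain and all between -1.86 and -1.33 per the authors' deposited table. Klhdc8b had 6 peaks, 1 of them depleted (-2.89), and Mical2, an actin-oxidizing enzyme, had 5 with none called.

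Enriched calls were divided unequally between the strands. On the plus strand 27 of 589 peaks (4.58%) were enriched, and on the minus strand 12 of 639 (1.88%). The depleted shares of the same peaks were 5.09% and 6.42%. Over all peaks the shares were 2.39% and 2.07%, over coding peaks 2.35% on both, and over intronic peaks 2.62% and 1.78%. Of the 12 genes with the lowest depleted values, 11 lie on the minus strand, whereas of all 71 depleted peaks 41 do, beside 639 of all 1228 5′ UTR peaks. These splits were noticed in the data and were not tested.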
